A study of Rattus norvegicus with 10 samples.

Results

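Lcn2 and 9 acute phase protein genes (Crp, Orm1, A2m, Saa4, Serpina3n, Itih3, Itih4, Cp and Apcs) were followed in rat liver. They were taken by gene symbol from the deposited TPM table, which lists 32883 genes, and 8 of the 10 symbols had a row. TPM scales transcript levels per length to the same total in every sample. Poly(A) RNA had been sequenced from livers of 5-week-old males, 5 of the Eisai hyperbilirubinemic rat (EHBR) and 5 of the Sprague-Dawley (SD) strain, numbered 1 to 5 in each. EHBR rats derive from SD stock and have no working Mrp2, the pump encoded by Abcc2 that exports conjugated bilirubin into bile. The labels name no agent, so strain was the 1 factor compared. The lack of the pump and other strain differences cannot be told apart.

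The acute phase response is the change in plasma protein production by hepatocytes during infection, injury or inflammation. Interleukin-6 and related cytokines act through the shared receptor subunit gp130 and the transcription factor STAT3, while interleukin-1 and tumour necrosis factor act through NF-kB and C/EBP factors. Lcn2 encodes lipocalin-2, which binds bacterial iron carriers (siderophores), and is best known from neutrophil granules and from injured liver and kidney. In the rat, alpha-2-macroglobulin (A2m) and alpha-1-acid glycoprotein (Orm1) respond strongly to inflammation, while C-reactive protein (Crp) is abundant in plasma at rest.

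The samples held 13.8 to 19.6 M reads assigned to genes. For Abcc2 the EHBR mean was 13.8 TPM and the SD mean 164 TPM, with no overlap and EHBR the lower. The labels give the strain names but no Abcc2 level. Across genes, numbers 4 and 5 of each strain separated from numbers 1 to 3, a division seen in the data and present in both strains alike. Differences are log2(TPM + 1), EHBR minus SD, tested with limma across 11083 genes that reached 1 TPM in at least 5 of the 10 samples, p-values being adjusted by Benjamini-Hochberg and called under 0.05. Of these genes, 3.82% rose and 1.63% fell in EHBR, 6.45% had every EHBR sample above every SD sample, and 2.02% every one below. The median gene differed by 0.15, which became -0.02 once the median of every sample was subtracted (median centring). The share of calls that were higher was 70% with TPM as deposited and 42% after that centring, and it was 58.8% with FPKM, 44.1% with upper-quartile FPKM and 52% after quantile normalization.

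Promoter sequences are shown first for the 3 genes with the largest differences toward EHBR, Lcn2, Orm1 and Itih4, and for Apcs, the member with the largest difference toward SD. Each runs from 250 bases before to 50 bases after the gene's start, 5′ to 3′ on the gene's strand, from RefSeq in the build GRCr8. The table held 8 of the 10 symbols, 7 of them with a row in the expression files. A2m and Saa4 had no entry. Capitals mark matches, on either strand, to 4 motifs of acute phase regulators: the STAT3 palindrome TTCNNNGAA, the C/EBP motif TTNNGNAAT, the NF-kB consensus, and the type 2 acute phase element CTGGGAA.
Lcn2 (chr3:36081731-36082030, minus strand): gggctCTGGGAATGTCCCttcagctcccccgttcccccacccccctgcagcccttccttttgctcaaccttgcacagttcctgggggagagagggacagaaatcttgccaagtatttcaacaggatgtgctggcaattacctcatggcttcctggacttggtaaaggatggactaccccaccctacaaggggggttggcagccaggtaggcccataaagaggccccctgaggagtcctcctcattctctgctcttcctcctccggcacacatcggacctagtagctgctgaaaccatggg
Orm1 (chr5:81788259-81788558, plus strand): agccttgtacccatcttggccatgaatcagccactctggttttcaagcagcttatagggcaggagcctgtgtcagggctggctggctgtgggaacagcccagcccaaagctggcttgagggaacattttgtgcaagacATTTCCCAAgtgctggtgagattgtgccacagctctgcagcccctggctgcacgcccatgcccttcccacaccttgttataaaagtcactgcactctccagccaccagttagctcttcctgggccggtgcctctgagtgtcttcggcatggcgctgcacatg
Itih4 (chr16:6086735-6087034, plus strand): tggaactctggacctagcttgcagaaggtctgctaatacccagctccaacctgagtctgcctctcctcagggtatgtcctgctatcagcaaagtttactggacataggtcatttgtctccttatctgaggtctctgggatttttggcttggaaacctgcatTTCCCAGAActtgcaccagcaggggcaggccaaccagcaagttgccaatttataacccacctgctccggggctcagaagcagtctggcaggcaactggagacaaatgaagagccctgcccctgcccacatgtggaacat
Apcs (chr13:87906459-87906758, minus strand): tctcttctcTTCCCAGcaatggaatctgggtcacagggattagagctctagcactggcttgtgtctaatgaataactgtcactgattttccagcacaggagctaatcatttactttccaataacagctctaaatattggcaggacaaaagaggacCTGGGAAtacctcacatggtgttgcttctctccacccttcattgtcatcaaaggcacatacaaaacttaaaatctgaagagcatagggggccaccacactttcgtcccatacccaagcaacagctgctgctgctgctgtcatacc
In Lcn2, an NF-kB match from -242 to -233 overlapped a CTGGGAA match from -245 to -239, counted from the gene's first base. Orm1 held 1 C/EBP match from -112 to -104. Itih4 held the STAT3 palindrome as TTCCCAGAA from -89 to -81, and its first letters, from -89 to -83, are also a match to the type 2 element on the minus strand. Apcs held that element at -95 to -89 and, on the other strand, at -241 to -235. Crp held 1 C/EBP match from -47 to -39. Serpina3n, which has no expression row under its symbol, held the STAT3 palindrome from -123 to -115, the overlapping type 2 element on the minus strand from -123 to -117, and a C/EBP match from -57 to -49. None of the 4 motifs was in the windows of Itih3 and Cp. Over all 33469 promoters of the same length, 8.87% held the STAT3 palindrome, 12.3% the C/EBP motif, 7.51% the NF-kB consensus and 11.3% the type 2 element. These matches describe the letters only.

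Lcn2 was the member that passed the test, and its transcript was close to absent in SD liver. Lcn2 (ENSRNOG00000013973) lies on chromosome 3 from 11414186 to 11417546, minus strand, in the build rn6. The SD samples 1 to 5 showed 0, 0, 0.114, 0.325 and 0.318 TPM. Those of EHBR showed 8.71, 8.47, 7.32, 12.1 and 4.79 TPM. The lowest EHBR sample stood far above the highest SD sample. Reads recovered from upper-quartile FPKM give the approximate depth: 0, 0, 1, 3 and 4 reads in SD, and 75, 72, 71, 123 and 38 reads in EHBR. They are not exactly the counts behind the TPM, as SD sample 4 had fewer reads than SD sample 5 but a higher TPM. A count of 0 allows up to 3 reads, or 0.19 and 0.208 FPKM in SD samples 1 and 2.

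The mean was 0.151 ± 0.162 TPM in SD livers and 8.28 ± 2.63 TPM in EHBR livers (SD, n = 5 each). On the log2 scale Lcn2 rose by 2.97 (SE 0.20, 95% interval 2.53 to 3.42, adjusted p = 1.03e-05, limma). That was the 11th largest increase and the 9th smallest p among the 11083 genes. Pooled over each strain, 8 SD reads and 379 EHBR reads gave a rate 52.5 times as high in EHBR (exact 95% interval 26.4 to 123, counting error only). The log2 value depends on the pseudocount at so low an SD level, and was 5.28 with 0.1 and 1.34 with 5 in place of 1. Lcn2 had passed the filter on low values through the EHBR samples alone, so it was bound to differ; without that filter it had an adjusted p = 6.84e-05 (limma). Numbers 1 to 3 gave a difference of 3.14, and numbers 4 and 5 one of 2.72. A limma test of whether these differ gave an adjusted p = 0.572 for Lcn2.

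Even in EHBR the level was low for a plasma protein gene. By the mean TPM of the EHBR samples, Lcn2 ranked 5824 of 32883 genes, and its 8.28 TPM stood beside EHBR means of 669 (Cp) to 1859 TPM (Crp) for the other members except A2m. Summed over the 8 members, TPM ran from 5997 to 8855 in SD and from 7503 to 8215 in EHBR. Lcn2 was too small a part of this sum for its rise to show there.

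**Figure D1:**
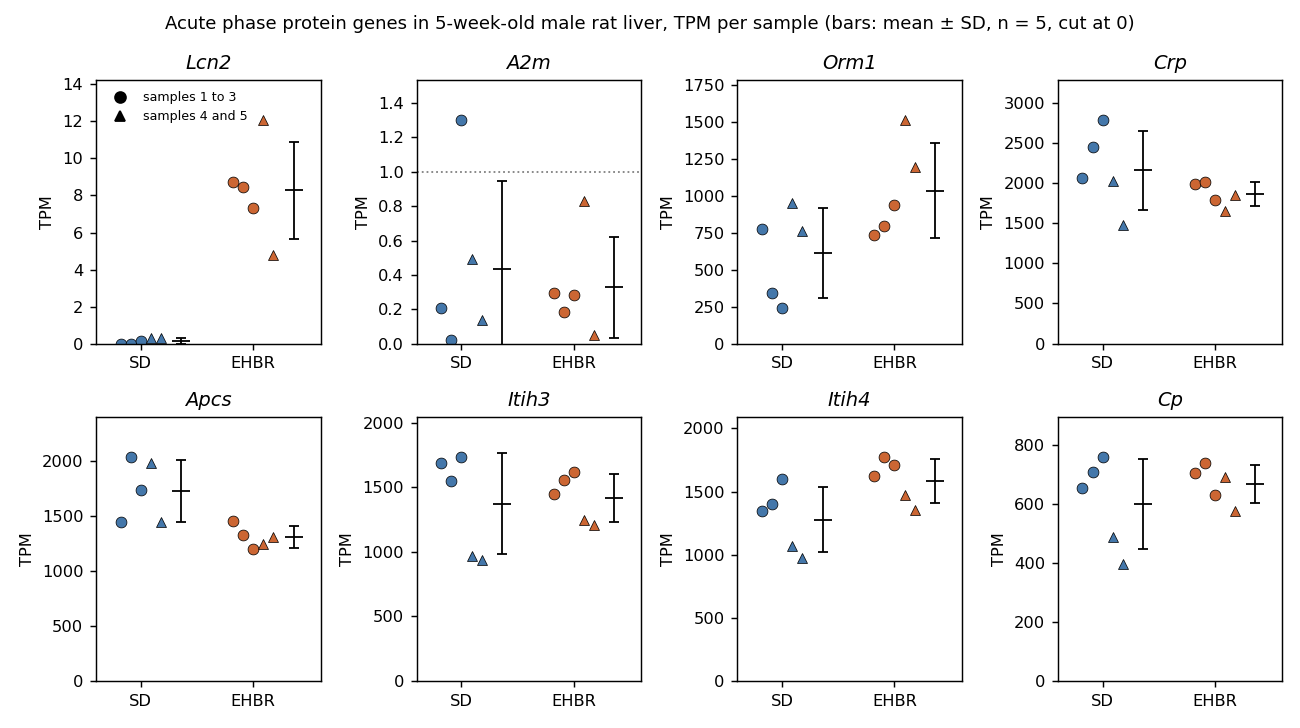
TPM of the 8 measured acute phase genes in each liver sample (circles, samples 1 to 3; triangles, samples 4 and 5), with the mean and SD of 5 samples per strain beside them and a dotted line at 1 TPM in the A2m panel. Lcn2 lies between 0 and 0.325 TPM in SD and between 4.79 and 12.1 TPM in EHBR, while the strains overlap for the other 7 genes.

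Because Lcn2 is a neutrophil granule gene as well as an acute phase gene, markers of neutrophils were read beside it. Of 13 neutrophil markers, 10 stayed under 1 TPM in all samples, and Ltf, the lactoferrin gene, was at 0 in all of them. The myeloperoxidase gene Mpo reached 0.0719 TPM at most. The summed level of the 13 markers ran from 6.61 to 11.9 TPM in SD and from 4.71 to 9.04 TPM in EHBR. It was therefore not above the SD range in any EHBR sample. Most of this sum came from the 3 kept markers, S100a8, S100a9 and Fcnb, and none of these had a positive log2 difference. The sum therefore says little about the markers under 1 TPM. Among those, Csf3r, Mmp8, Camp, Mpo, Cxcr2 and Ctsg had a higher mean in EHBR. Elane, Ngp and Prtn3 had a lower one, and the strains overlapped for each of these genes. S100a9, a calcium-binding protein of neutrophils and monocytes, had 4.07 ± 1.13 TPM in SD livers against 2.19 ± 0.607 TPM in EHBR livers (SD, n = 5 per strain), with no overlap between strains and an adjusted p = 0.0767 (limma). S100a9 passed as lower with a term for numbers 4 and 5 (adjusted p = 0.039), quantile normalization (adjusted p = 0.0466) and sample weights (adjusted p = 0.0447).

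Markers of Kupffer cells, bile duct cells, lymphocytes and hepatocytes had no call in the main test. With the term for numbers 4 and 5, 3 hepatocyte markers were higher and 1 bile duct marker lower, against 13.6% and 3.36% of all genes. After median centring 1 bile duct marker was lower, as were 266 of the 11083 genes. None of 10 kept Kupffer cell and monocyte markers passed, with sums of 308 to 405 TPM in SD and 337 to 602 TPM in EHBR, Clec4f being the most abundant (90.7 and 107.3 TPM). None of 4 kept bile duct and progenitor markers passed, with sums of 24.0 to 34.7 and 23.3 to 31.97 TPM. None of 3 kept lymphocyte markers passed, with sums of 8.68 to 17.4 and 12.4 to 15.4 TPM. All 10 hepatocyte markers were kept and none passed, with sums of 122200 to 152700 TPM in SD and 140000 to 160000 TPM in EHBR. In bulk tissue, fewer cells of a type and less RNA per cell cannot be told apart.

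**Figure D2:**
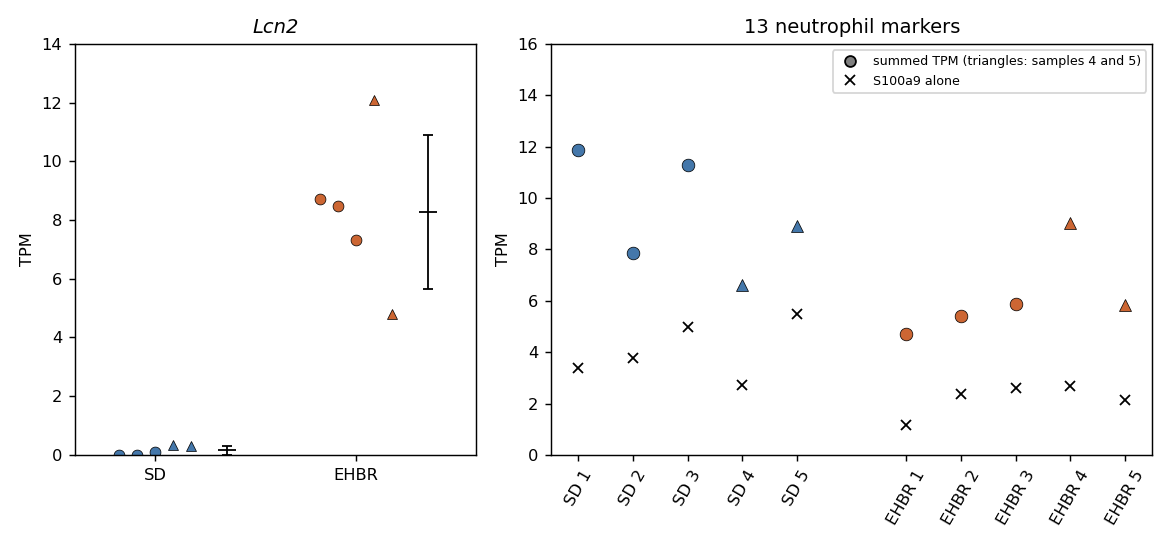
Lcn2 TPM per sample with mean and SD of 5 samples (left), and the summed TPM of 13 neutrophil marker genes with S100a9 alone as crosses (right), for the same SD and EHBR livers. Lcn2 is high in all 5 EHBR samples, while the marker sum is between 4.71 and 9.04 TPM there and between 6.61 and 11.9 TPM in SD.

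Genes described as partners of lipocalin-2 were measured too. Bdh2 is reported to make a mammalian siderophore, proposed as a ligand of lipocalin-2. It rose from 6.27 ± 1.73 to 10.8 ± 1.53 TPM (log2 0.72, SE 0.18, adjusted p = 0.038, limma). The call was lost after median centring (0.55, adjusted p = 0.243) and with FPKM (0.60, adjusted p = 0.107). Leaving out any 1 of 8 of the 10 samples also ended it. The receptor gene Slc22a17 averaged 9.79 ± 3.54 TPM in SD, against 8.58 ± 1.12 TPM in EHBR and did not pass. Mmp9, the metalloproteinase that lipocalin-2 binds, stayed at or under 0.285 TPM.

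Orm1, the gene of alpha-1-acid glycoprotein, a plasma carrier of basic drugs, had a higher mean in EHBR but overlapping values. It lies on chromosome 5 from 79179417 to 79182820. SD samples 1 to 5 showed 776, 340, 238, 952 and 766 TPM, and EHBR samples 738, 795, 938, 1516 and 1198 TPM. SD samples 2 and 3 lay far below all others, and the other 3 SD samples were within the EHBR range. The means were 614 ± 308 and 1037 ± 321 TPM (SD, n = 5 per strain), and the log2 difference of 0.89 (SE 0.37, 95% interval 0.08 to 1.69) missed the threshold (adjusted p = 0.194, limma). Within strains the log2 SD of Orm1 exceeded that of 95.3% of the 993 genes averaging 100 TPM or more. In samples 4 and 5 of both strains it was above the mean of samples 1 to 3. With a term for that division in the fit, Orm1 passed (adjusted p = 0.0426, limma), as 13.6% of all genes were then higher.

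A2m, the protease-trapping alpha-2-macroglobulin, was at the edge of detection in both strains. It lies on chromosome 4 from 154309426 to 154359137. The SD samples showed 0.206, 0.0207, 1.30, 0.49 and 0.139 TPM, from 11, 1, 59, 31 and 9 reads. The EHBR samples showed 0.294, 0.183, 0.281, 0.828 and 0.049 TPM, from 13, 8, 14, 43 and 3 reads. The highest value was SD sample 3, and A2m did not reach the filter. The exact permutation test gave a two-sided p = 0.762 for its log2 difference of -0.07, where 5 against 5 samples allow no p under 0.00794. Its relative Pzp, a macroglobulin that is abundant in rat plasma at rest, had 1443 ± 520 and 1441 ± 244 TPM. None of 5 kept genes in the list of macroglobulins, their clearance receptor Lrp1 and the chaperone Hspa5 passed.

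The pentraxins Crp and Apcs encode ring-shaped plasma proteins that bind bacteria and dead cells, and both were among the most abundant liver transcripts. Crp lies on chromosome 13 from 91054974 to 91093713, and Apcs, the gene of serum amyloid P component, on the same chromosome from 91426479 to 91427575. Crp showed 2061, 2452, 2785, 2023 and 1479 TPM in SD and 1988, 2016, 1786, 1654 and 1852 TPM in EHBR. The EHBR values fell inside the wider SD range. Its log2 difference was -0.19 (95% interval -0.53 to 0.15, adjusted p = 0.495, limma).

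Apcs showed 1448, 2035, 1737, 1982 and 1443 TPM in SD and 1459, 1328, 1202, 1249 and 1313 TPM in EHBR. Of the EHBR samples, only sample 1 reached the SD range, passing the 2 lowest SD samples. The means were 1729 ± 282 and 1310 ± 97.3 TPM (SD, n = 5 per strain). The log2 difference of -0.39 (SE 0.12, 95% interval -0.65 to -0.12) did not pass (adjusted p = 0.0914, limma). Numbers 1 to 3 gave -0.38 and numbers 4 and 5 gave -0.40. Apcs passed as lower with that division as a term (adjusted p = 0.0398, where 3.36% of genes were lower), with FPKM (-0.49, adjusted p = 0.0451), with voom on recovered reads (-0.49, adjusted p = 0.0392) and with sample weights (-0.41, adjusted p = 0.0369). The backgrounds were 1.94% for FPKM, 1.79% for voom and 2.63% for sample weights.

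Itih3 and Itih4 encode heavy chains of the inter-alpha-trypsin inhibitor family, which bind hyaluronan, and lie side by side on chromosome 16, Itih4 from 6970342 to 6985579 and Itih3 from 6992062 to 7007287 on the other strand. Itih4 showed 1345, 1398, 1603, 1071 and 971 TPM in SD and 1627, 1771, 1707, 1470 and 1352 TPM in EHBR. SD samples 4 and 5 were the lowest, and SD sample 3 lay above 2 EHBR samples. The log2 difference was 0.33 (SE 0.14, 95% interval 0.01 to 0.64, adjusted p = 0.222, limma), and it passed once that division was a term in the fit (adjusted p = 0.0185). After median centring it was 0.16.

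Itih3 showed 1685, 1548, 1732, 964 and 940 TPM in SD and 1450, 1558, 1620, 1245 and 1208 TPM in EHBR. In both strains samples 4 and 5 were the lowest, and the 2 SD samples among them lay below every other sample. The log2 difference was 0.09 (95% interval -0.33 to 0.51, adjusted p = 0.815, limma), -0.10 in numbers 1 to 3 and 0.36 in numbers 4 and 5. It was -0.01 with FPKM and -0.08 after median centring, so its sign depends on the scaling. The other genes of the system, Itih1 and Itih2, heavy chain genes, and Ambp, which encodes the light chain bikunin, had log2 differences of 0.21, 0.28 and 0.03 and did not pass.

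Cp, the gene of the copper-carrying ferroxidase ceruloplasmin, lies on chromosome 2 from 104744461 to 104799853. It showed 654, 709, 759, 488 and 397 TPM in SD and 704, 739, 632, 694 and 575 TPM in EHBR. As for Itih3, SD samples 4 and 5 were the lowest, and the other samples overlapped. The log2 difference was 0.19 (95% interval -0.18 to 0.56, adjusted p = 0.536, limma). Numbers 1 to 3 gave -0.03 and numbers 4 and 5 gave 0.52, and the test of the difference between these did not pass (adjusted p = 0.152, limma), as 0.271% of all genes did. The row of Hps3 overlaps Cp on the opposite strand and reached 9.74 TPM at most. Of 8 kept genes of copper and iron handling beside Cp, none passed. With the term for the numbers 2 of the 8 were higher, where 13.6% of all genes were. Transferrin (Tf) was higher in all 5 EHBR samples, at 19110 to 22640 TPM against 14070 to 17350 TPM, with a log2 difference of 0.38 (adjusted p = 0.0976, limma). Tf passed with the term (adjusted p = 0.00992), quantile normalization (adjusted p = 0.0427), sample weights (adjusted p = 0.0368) and a mean of at least 5 TPM (adjusted p = 0.038). Genes called higher were 1506 with the term, 314 with quantile normalization, 719 with sample weights and 377 with that mean. In the other 22 alternatives Tf was not called.

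No gene of the files carried the symbols Saa4 or Serpina3n. The Entrez ID 365245, which RefSeq gives to Saa4, stands on the row listed as Hps5 (chromosome 1 from 102776082 to 102849430), whose description in the file is of an acute phase apolipoprotein of HDL. What share of that row's reads came from each gene was not tested. The Hps5 row showed 370, 213, 233, 234.5 and 217 TPM in SD and 268, 254, 267, 332 and 269 TPM in EHBR. SD sample 1 was the highest of all, and the log2 difference of 0.16 did not pass (adjusted p = 0.553, limma). The Entrez ID of Serpina3n stands on the row RGD1565462, which is listed at 0 TPM in all samples. These rows were looked up after their absence under the symbols was seen. Of the serpin genes near Serpina3n in kind, Serpina3c had 7739, 7509, 6743, 6901 and 8435 TPM in EHBR against 8027, 9806, 9688, 9836 and 8896 TPM in SD. Serpina3m was lower in all 5 EHBR samples (407 to 516 TPM against 537 to 651 TPM). Neither passed, with log2 differences of -0.31 for each and an adjusted p = 0.142 and an adjusted p = 0.0868 (limma). Reads can be split among such closely similar serpin genes, so each value is uncertain. Both were named after their values were seen.

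**Figure D3:**
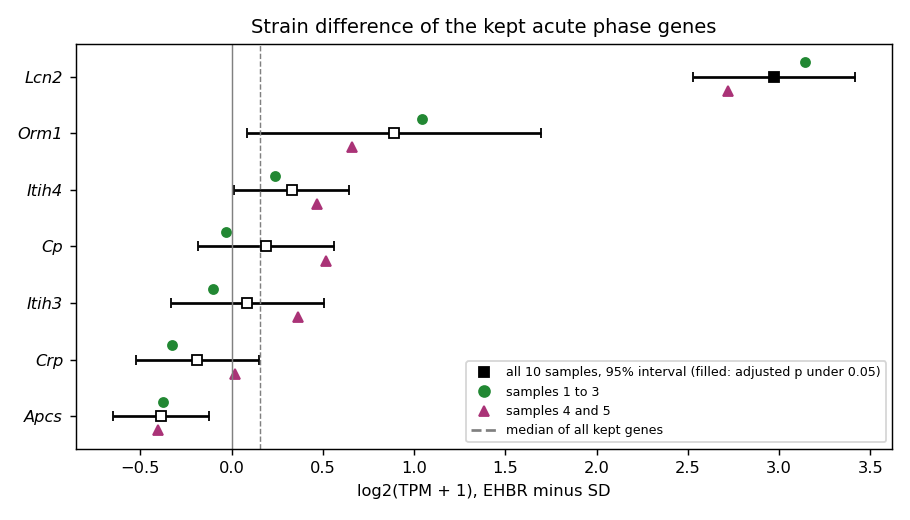
Strain difference in log2(TPM + 1), EHBR minus SD, of the 7 acute phase genes that passed the filter, as squares with 95% intervals (filled for an adjusted p under 0.05), with the differences among samples 1 to 3 (circles) and samples 4 and 5 (triangles). Lcn2 lies at 2.97 with both parts beyond 2.7, and the dashed line marks the median gene at 0.15.

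Read together, the 7 kept members did not move as a block. Lcn2 was called higher, as were 3.82% of all genes, and the other 6 were not called. As Lcn2 had passed the filter through the EHBR samples alone, it was bound to differ. Of the 7 differences, 5 were above 0. Their median was 0.19, against 0.15 for all genes tested. Their median was -0.03 in numbers 1 to 3 and 0.47 in numbers 4 and 5, where all genes had 0.07 and 0.27. With the term for the numbers, 3 members were higher (Lcn2, Orm1 and Itih4) and 1 lower (Apcs), against 13.6% and 3.36% of all genes.

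Most cytokine genes of the acute phase list had little or no transcript in the livers of either strain. Cytokines reaching the liver from elsewhere were not measured. Of 12 cytokine genes, Il6, Lif, Il22 and Il17a were listed at 0 TPM in all samples, and 7 of the 12 stayed under 1 TPM everywhere. None of the 4 kept genes passed. Il1b, the gene of interleukin-1 beta, had mean levels of 3.56 TPM in SD and 1.95 TPM in EHBR (log2 -0.69, adjusted p = 0.163, limma). The most abundant, Ctf1, of the gp130 cytokine family, had 8.76 ± 1.72 and 8.17 ± 2.62 TPM.

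Of 21 kept receptors and signal transducers, 2 rose and none fell, against 3.82% and 1.63% of all genes. The median log2 difference was 0.26, against 0.15 for all genes. Lifr, the receptor of leukemia inhibitory factor that pairs with gp130, rose from 2.25 ± 1.46 to 6.88 ± 2.52 TPM, a log2 rise of 1.34 (SE 0.33, adjusted p = 0.0351, limma). With FPKM the difference was 1.12 (adjusted p = 0.0555), and leaving out any 1 of 7 samples ended the call. Il1rap, the accessory chain of the interleukin-1 receptor, rose from 16.2 ± 1.63 to 22.9 ± 1.76 TPM (log2 0.48, adjusted p = 0.0194), with 0.31 after median centring (adjusted p = 0.165), and lost the call without EHBR sample 2 or 3. The call of Il1rap also ended with quantile normalization (adjusted p = 0.0707, limma) and in numbers 4 and 5 alone (adjusted p = 0.1408, limma). It ended too with upper-quartile FPKM in both forms and with the length trend removed. The interleukin-6 receptor gene Il6r had 20.4 ± 12.2 and 36.8 ± 19.3 TPM, Il6st, which encodes gp130, 21.2 ± 14.7 and 24.3 ± 4.53 TPM, and Stat3 19.0 ± 5.78 and 28.8 ± 4.99 TPM. None of these 3 passed (adjusted p = 0.325, 0.533 and 0.115, limma). With the term for the numbers, 6 of the 21 were higher, where 13.6% of all genes were, Il6r (adjusted p = 0.00387) and Stat3 (adjusted p = 0.022) among them.

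Of 21 kept transcription factors and feedback genes, 1 rose and 1 fell, against 3.82% and 1.63% of all genes. Both encode regulators of NF-kB. Tnfaip3, which encodes the inhibitor A20, rose from 0.773 ± 0.132 to 1.87 ± 0.483 TPM (log2 0.68, SE 0.14, adjusted p = 0.0156, limma). Like Lcn2 it passed the filter through the EHBR samples alone, all SD samples being under 1 TPM, so it was bound to differ. It also passed without the filter. Its call was lost without EHBR sample 2 (0.62, adjusted p = 0.0509, limma) and in numbers 4 and 5 alone (0.54, adjusted p = 0.1111, limma). Bcl3, which encodes a nuclear partner of NF-kB, fell from 19.0 ± 10.8 to 5.05 ± 0.872 TPM (log2 -1.59, SE 0.29, adjusted p = 0.00749), with no overlap between strains. The C/EBP genes Cebpb and Cebpd (log2 -0.27 and -0.02), the STAT3 feedback gene Socs3 (-0.28) and the NF-kB inhibitor gene Nfkbia (0.13) did not pass. Socs3 ran from 2.64 to 11.5 TPM in SD and from 1.63 to 14.1 TPM in EHBR.

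The other positive acute phase proteins mostly had no call. Of 33 symbols, 27 were in the files and 23 rows were kept. Of these, 1 rose, 3 fell and 19 did not pass, where 3.82% of all genes rose and 1.63% fell. With the term for numbers 4 and 5 in the fit, 4 were higher and 3 lower, against 13.6% and 3.36% of all genes. The median log2 difference was -0.15, against 0.15 for all genes, and 9 of the 23 were above 0. Haptoglobin (Hp) averaged 13020 ± 2444 TPM in SD, against 10280 ± 1061 TPM in EHBR (log2 -0.33, adjusted p = 0.218, limma). The fibrinogen chain genes Fga, Fgb and Fgg had log2 differences of -0.13, -0.19 and -0.15, and none passed.

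Kng1, the kininogen gene, rose from 346 ± 47.2 to 586 ± 50.5 TPM (log2 0.77, SE 0.11, adjusted p = 0.00225, limma). Rats have near-identical kininogen copies, so that value is uncertain. Fgl1, a fibrinogen-like protein secreted by hepatocytes, showed 679, 650, 702, 525 and 442 TPM in SD and 202, 154, 203, 317 and 205 TPM in EHBR, with all EHBR values under all SD values. Fgl1 thus fell by 1.49 in log2 units (SE 0.19, adjusted p = 0.00102, limma). In numbers 4 and 5 alone Fgl1 did not pass (-0.91, adjusted p = 0.0663). The heme-binding Hpx fell by 0.51 (adjusted p = 0.0413), and by 0.23 without a call after quantile normalization (adjusted p = 0.318). Its call also ended with no filter (adjusted p = 0.0934), with upper-quartile FPKM, and on leaving out any 1 of 9 samples. Hamp, the gene of the iron hormone hepcidin, fell by 5.06 (SE 1.26, adjusted p = 0.04), from 868 to 3718 TPM in SD to 0.978 to 466 TPM in EHBR. Its call ended with quantile normalization (adjusted p = 0.0503), a pseudocount of 0.1, no filter, upper-quartile FPKM in both forms, removal of the length trend, and on leaving out any 1 of 7 samples. Leaving out 1 sample gave log2 differences of -5.78 to -3.81 for Hamp.

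**Figure D4:**
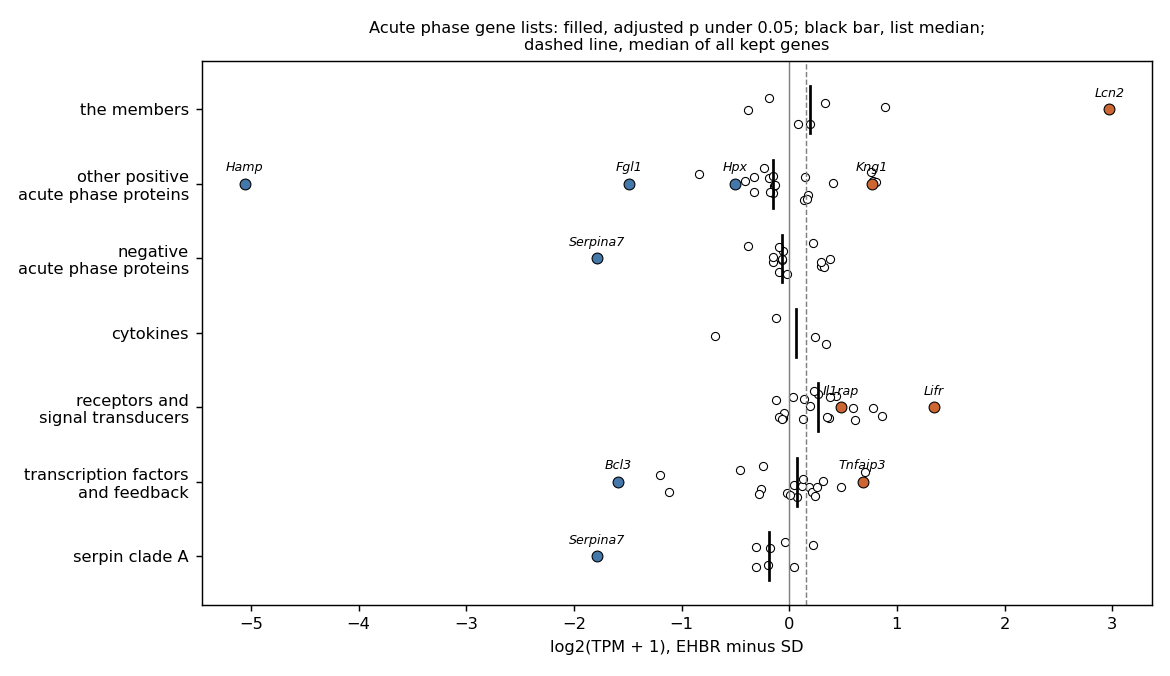
Strain difference in log2(TPM + 1), EHBR minus SD, of every kept gene in 7 lists (points; filled and named for an adjusted p under 0.05), with each list's median as a black bar and the median of all genes at 0.15 as a dashed line. Lcn2 at 2.97 is the highest point and Hamp at -5.06 the lowest.

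Genes whose proteins fall in plasma during an acute phase were also read. Of 15 kept negative acute phase genes, none rose, 1 fell and 14 did not pass, where 3.82% of all genes rose and 1.63% fell. Their median log2 difference was -0.06, against 0.15 for all genes. Albumin (Alb) averaged 90150 ± 10450 TPM in SD, against 110300 ± 5865 TPM in EHBR (log2 0.30, adjusted p = 0.29, limma). Serpina7, the thyroxine-binding globulin gene, fell from 8.02 ± 4.06 to 1.37 ± 0.467 TPM (log2 -1.79, SE 0.35, adjusted p = 0.0109), and lost its call in numbers 1 to 3 alone (-1.58, adjusted p = 0.126). It was the 1 called gene of 8 kept serpins of clade A, whose median was -0.19 and of which 4 were lower with the term for the numbers, where 3.36% of all genes were. Among lipocalins other than Lcn2 and Orm1, none of 4 kept genes passed, and the retinol carrier gene Rbp4 had 8341 ± 1378 and 7739 ± 442 TPM.

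The genes most like Lcn2 within strains were found from Pearson's r between deviations of log2(TPM + 1) from the strain means over the 10 samples. They were Kptn (0.90), Fam234b (0.90), Impa2 (0.89), Tbxas1 (0.89) and Poll (0.87), picked as the highest of all kept genes and therefore given with no p. None of these 5 is an acute phase gene of the lists. Fam234b rose and Poll fell between strains, by 0.50 and 0.53 on the log2 scale (adjusted p = 0.0347 and 0.0168, limma). Fam234b lost its call after median centring (0.33, adjusted p = 0.266), after quantile normalization (0.32, adjusted p = 0.281), with no filter (adjusted p = 0.0579), and on leaving out any 1 of 8 samples. Poll lost its call without EHBR sample 2 (adjusted p = 0.0541, limma) and in numbers 4 and 5 alone (adjusted p = 0.1115, limma). Kptn, Impa2 and Tbxas1 did not pass.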

How the data were processed

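Liver poly(A) RNA was extracted with TRIzol and made into directional libraries, per the labels' protocols. The tools that the submitters' processing notes list are featureCounts 1.6.3, HISAT2 2.1.0, Trimmomatic 0.38 and FastQC 0.11.7, on rn6. The strand setting of the counting is not stated in these notes or labels. The authors deposited TPM, FPKM and upper-quartile FPKM (a signal scaled to each sample's upper-quartile count), 1 column per sample. The deposited TPM are not an exact rescaling of the deposited FPKM.

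The main test was limma 3.58.1 (R 4.3.3, trend option) on log2(TPM + 1), two-sided, checked on simulated data. Reads were recovered from upper-quartile FPKM with gene lengths that made all values whole within 0.0002 reads, and covered at least 99.979% of each total. The exact permutation test used Python 3.11.15 with scipy 1.17.1. The labels do not say whether samples with the same number share anything, nor how the rats were bred or housed. The p-values therefore reflect only variation among the 10 samples, some of which may be technical.

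The members and gene lists were chosen with earlier results of these data known. Genes named were all members, Abcc2, fixed genes of interleukin-6 signalling, fibrinogen and the inhibitor family, up to 3 called genes of each list by adjusted p or its most abundant gene where none was called, and the 5 genes most like Lcn2. Others were named after their values were seen. The alternatives were FPKM, upper-quartile FPKM, pseudocounts of 0.1 and 5, other filters, quantile normalization, median centring, sample weights, the replicate number as a block, a term for numbers 4 and 5, each of these parts alone, and leaving out each sample. Voom on recovered reads, removal of a length trend, a scaled pseudocount and the interaction test were added after the data were seen.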

Additional observations from a re-analysis of the deposited data

How the results depend on the processing

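Lcn2 was higher in EHBR under every alternative that tested it, with a log2 difference of 2.47 to 3.14 over 21 alternatives that keep the pseudocount near 1 on the TPM or FPKM scale (adjusted p from 7.06e-07 to 0.0331, limma). Nearly all of these fits used the genes kept by the filter, which Lcn2 had passed through the EHBR samples alone. Their shared direction was therefore bound to occur. Without the filter the difference was 2.97 (adjusted p = 6.84e-05, limma). Lcn2 lost its call with upper-quartile FPKM plus 1 (10.1, adjusted p = 0.0861), and kept it with the scaled pseudocount (2.93). The count of members higher, 1 in the main test, was therefore 0 there, 0 with a mean of at least 5 TPM, which leaves Lcn2 out of the fit, and 3 with the term for numbers 4 and 5. The count of members lower, 0 in the main test, was 1 (Apcs) with FPKM, sample weights, that term and voom. Leaving out 1 sample gave 1 member higher and 0 lower each time. Genes higher, 423 in the main test, were 190 with upper-quartile FPKM, 216 with the scaled pseudocount, 193 after median centring, 246 with the length trend removed, 719 with sample weights, 1506 with the term and 243 to 439 with 1 sample left out. Genes lower, 181 in the main test, were 112 in samples 4 and 5 alone, 290 after quantile normalization, 291 with the length trend removed, 292 with sample weights, 372 with the term and 135 to 179 with 1 sample left out. The cause of these changes was not tested.

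With the replicate number as a block, 639 genes were higher and 222 lower. Same-numbered samples correlated across genes at 0.134, 0.287, 0.074, 0.254 and 0.27 in their deviations from the strain means, so 1 of the 5 was not over 0.1, and not every sample correlated best with its own number. Whether same-numbered samples share anything else is not stated in the labels. With the block Il6r (adjusted p = 0.0121) and Stat3 (adjusted p = 0.0482) passed as higher, and Fam234b (adjusted p = 0.0633) lost its call. The block changed no member's call. No named gene reversed a called direction under any alternative. Lcn2 rests on 8 reads in SD, so differences among SD samples were not detectable at this depth. A2m had 111 SD and 81 EHBR reads, a rate ratio of 0.809 (exact 95% interval 0.6 to 1.087, counting error only).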

Other observations

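Among markers of other liver cells, 2 of 8 kept stellate and endothelial genes rose in EHBR and none fell, against 3.82% and 1.63% of all genes. Stab2, a scavenger receptor of sinusoidal endothelium, averaged 2.38 ± 0.646 TPM in SD and 5.34 ± 0.70 TPM in EHBR, a log2 rise of 0.92 (adjusted p = 0.00673, limma). It lost its call with the length trend removed (0.69, adjusted p = 0.0936) and with upper-quartile FPKM (adjusted p = 0.056). Kdr, the endothelial receptor of VEGF, rose from 8.17 ± 1.10 to 13.4 ± 1.48 TPM (log2 0.66, adjusted p = 0.00916) and lost its call after median centring (0.49, adjusted p = 0.0755). The summed level of the 8 genes ran from 101 to 193 TPM in SD and from 161 to 215 TPM in EHBR.

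Among pancreas and kidney markers, Prss1, Umod and Aqp2 were at 0 in all samples. Cela1, an elastase gene, passed the filter and fell from 52.6 ± 9.32 to 25.9 ± 4.08 TPM (log2 -0.99, SE 0.15, adjusted p = 0.00259, limma), with no overlap between strains. In numbers 4 and 5 alone Cela1, Stab2 and Kdr did not pass (adjusted p = 0.0584, 0.0539 and 0.0899, limma). Mt2A, a metallothionein gene of the acute phase list, had the values 314, 585, 2423, 306 and 10.9 TPM in SD and 877, 336, 357, 26.0 and 29.9 TPM in EHBR, with a log2 difference of -0.84 (adjusted p = 0.737, limma). It was named after its values were seen.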
